A study of Mus musculus with 7 samples.

Results

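The Wnt ligands, receptors, antagonists and feedback genes were followed in cells sorted as granule neuron precursors from mice with a conditional Ptch1 deletion. Members were chosen by gene symbol, with earlier results of these data known. The symbols were those of the Wnt and Frizzled genes, Sfrp1 to Sfrp5, Dkk1 to Dkk4, Wif1, Lrp5, Lrp6, Axin1, Axin2, Lef1, the Tcf7 genes, Ctnnb1, Apc, Nkd1, Nkd2, Notum, Sp5, Lgr4 and Lgr5. The rule matched 54 of 18193 genes that had a probe set of their own, with 112 of 45037 probe sets. One of the 54, Fzd10os, is a transcript antisense to Fzd10 and no receptor. The symbols Tcf7 and Sfrp3 had no match. Frzb, another symbol of Sfrp3, was instead in a pathway list described below and was not among its measured genes.

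All samples are labelled as granule neuron precursors, the dividing cells that form the granule neurons of the cerebellum, sorted from mice of the genotype Math1-Cre/Ptc-loxp/Nestin-CFP. Math1-Cre is designed to delete Ptch1, the inhibitory Hedgehog receptor, in the granule lineage. Both fractions share this genotype, no fraction from mice without it was compared here, and the loss of Ptch1 was not checked at the deleted part. A Nestin-CFP reporter split the cells by flow cytometry into 4 Nestin-positive samples (replicates 1, 3, 4 and 5) and 3 Nestin-negative samples (replicates 1, 4 and 5), untreated and uncultured. The sample labels give postnatal day 7 and a medulloblastoma tissue, while the series description gives postnatal day 4 cerebella. Nothing in the labels says that the samples came from separate animals, so that p-values measure the spread between these samples, which may be technical.

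Wnt proteins are secreted, lipid-modified ligands that bind Frizzled receptors together with the co-receptors Lrp5 and Lrp6. Without ligand, a complex of Axin, Apc and kinases marks beta-catenin (Ctnnb1) for destruction. With ligand, beta-catenin accumulates and joins Tcf and Lef factors at target genes, several of which, such as Axin2, Nkd1, Notum and Sp5, feed back on the pathway. Secreted antagonists of the Sfrp, Dkk and Wif families act outside the cell, and in the cerebellum the pathway is known for its part in patterning and for the Wnt subgroup of medulloblastoma, which is distinct from the Hedgehog subgroup.

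Stretches before the gene start are printed for the antagonist that rose, Sfrp2, and for the feedback genes that passed the intensity filter, Sp5, Axin2 and Nkd1, because the comparison of pathway output turns on them. Each holds the 250 bases before the start, 5′ to 3′ on the gene's plus strand, from RefSeq (GRCm38.p6), with TCF/LEF letters in capitals. The letters searched, on both strands, were CTTTGAA and also CTTTGAT and also CTTTGTA and also CTTTGTT, which differ in their last 2 letters and can overlap across strands. The positions are chr3:83766071-83766320 for Sfrp2, chr2:70474673-70474922 for Sp5, chr11:108920099-108920348 for Axin2 and chr8:88527383-88527632 for Nkd1.
Sfrp2: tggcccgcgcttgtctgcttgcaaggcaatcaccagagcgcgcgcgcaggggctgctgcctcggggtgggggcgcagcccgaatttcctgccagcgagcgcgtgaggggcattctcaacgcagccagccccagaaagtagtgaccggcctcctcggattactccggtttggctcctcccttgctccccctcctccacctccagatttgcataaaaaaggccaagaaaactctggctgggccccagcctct
Sp5: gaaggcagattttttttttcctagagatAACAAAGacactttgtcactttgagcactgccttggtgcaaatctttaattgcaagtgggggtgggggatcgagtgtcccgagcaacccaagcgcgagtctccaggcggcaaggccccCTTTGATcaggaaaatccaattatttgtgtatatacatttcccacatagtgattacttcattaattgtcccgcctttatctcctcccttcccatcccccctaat
Axin2: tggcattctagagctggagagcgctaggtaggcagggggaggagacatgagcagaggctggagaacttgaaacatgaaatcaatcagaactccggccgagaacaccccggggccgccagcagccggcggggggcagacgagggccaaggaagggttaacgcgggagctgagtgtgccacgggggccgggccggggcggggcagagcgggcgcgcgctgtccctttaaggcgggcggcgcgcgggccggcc
Nkd1: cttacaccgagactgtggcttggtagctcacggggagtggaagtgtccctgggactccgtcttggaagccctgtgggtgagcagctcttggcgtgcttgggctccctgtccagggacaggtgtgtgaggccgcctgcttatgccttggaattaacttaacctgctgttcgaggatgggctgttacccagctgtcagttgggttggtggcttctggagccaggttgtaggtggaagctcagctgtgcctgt

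Sp5 held 2 matches, AACAAAG beginning 222 bases and CTTTGAT beginning 104 bases before the start, and the other 3 windows held 0. The letters were found in 7 of 43 windows of the 35 member genes in the RefSeq table (16.3%) and in 14.8% of all 32851 windows. The GLI letters TGGGTGGTC, on both strands, were in 0 of the 43 windows and in 0.225% of all windows. A match is a description of these letters and does not show that a factor binds there, and a window without one says nothing about sites elsewhere.

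Signals are MAS5 intensities on a linear scale, on which each array had a trimmed mean of 500.003. The array medians ran from 64.4 to 93.7 in Nestin-positive and from 73.3 to 94.5 in Nestin-negative samples, and signals under them are called dim. Nes, whose reporter defined the sort, had 478 to 829 in Nestin-positive and 174 to 217 in Nestin-negative samples. Ptch1 had 12780.0 to 13180.0 in Nestin-positive and 10587.5 to 11606 in Nestin-negative samples, and where this probe set lies relative to the deletion is not given, so that these signals do not show the deletion. All 11 markers of granule neuron precursors passed the filter, with summed signals of 77414 to 90017 in Nestin-positive and 78309.5 to 86122 in Nestin-negative samples. In the fit with the replicate number as a block, described below, 5 of the 11 were called higher in Nestin-positive samples and 0 lower. Of all genes, 3.60% were called higher and 6.52% lower in that fit. Without the block 0 of the 11 were called.

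Markers of other cells differed between the fractions and between replicates. The summed signal of 10 of 14 microglia markers past the filter was 359 to 1193 in Nestin-positive and 2196 to 8192 in Nestin-negative samples, and C1qc and Lyz2 were dim on every Nestin-positive array. Pericyte and smooth muscle markers (9 of 11) summed to 658 to 2133 in Nestin-positive and 1431 to 9798 in Nestin-negative samples. Meningeal fibroblast markers (6 of 10) summed to 4045 to 6067 in Nestin-positive and 5421 to 12141 in Nestin-negative samples. Endothelial markers (10 of 14) summed to 888 to 3331 in Nestin-positive and 1155 to 3611 in Nestin-negative samples. Of these 10, 1 had a positive and 9 a negative log2 change, and 1 was called lower with the block. Astrocyte and Bergmann glia markers (12 of 13) summed to 11543 to 32354, highest in replicate 3, in Nestin-positive and 9042 to 23914 in Nestin-negative samples. These 12 went in both directions, with 5 positive and 7 negative log2 changes, and with the block 2 were called higher and 5 lower. The microglia, pericyte, endothelial and astrocyte sums were all lowest in replicate 1 of both fractions. Oligodendrocyte lineage markers (7 of 10) summed to 6156 to 7915 in Nestin-positive and 7195 to 8549.9 in Nestin-negative samples. GABAergic interneuron markers (5 of 10) summed to 3066 to 3688 in Nestin-positive and 4339 to 5500.5 in Nestin-negative samples, without overlap, and Gad1 was dim on every Nestin-positive array. Markers of postmitotic granule neurons (9 of 11) summed to 32212 to 40948 in Nestin-positive and 47746 to 57783 in Nestin-negative samples, without overlap. With the block, 10 of 10 microglia, 8 of 9 pericyte, 5 of 6 meningeal fibroblast and 3 of 5 GABAergic markers were called lower. So were 8 of 9 markers of postmitotic granule neurons, and no marker of these lists was called higher. Of 7 oligodendrocyte lineage markers 2 were called higher and 2 lower, where 3.60% and 6.52% of all genes were. Without the block, 2 microglia and 3 postmitotic neuron markers were called lower. The part of these cell types in the Wnt results was not tested. In sorted bulk samples, fewer cells of a type and less RNA per cell cannot be told apart.

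Of the 54 members, 25 passed the filter, which asks for a signal at or above the array median on at least 3 of the 7 arrays without regard to fraction. The other 29 were dim, 21 of them on every array. Most of the dim members were ligands. Of 19 Wnt genes only Wnt4, Wnt5a and Wnt7b passed, and 14, among them Wnt1, Wnt3a and Wnt7a, reached the array median on 0 arrays. Frizzled genes were mostly measurable, with 7 of 10 past the filter, as were both R-spondin receptors, Lgr4 and Lgr5. Of 9 antagonists, Sfrp1, Sfrp2, Sfrp4 and Dkk3 passed, while Dkk1, Dkk2, Dkk4, Sfrp5 and Wif1 were below the median on every array. The co-receptor Lrp5 was dim on every array, whereas Lrp6 was measured. A dim MAS5 signal does not show that a transcript is missing.

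The 25 genes went in both directions. Of them, 12 had a positive and 13 a negative log2 change, with a median of -0.05, against -0.03 over all 11089 genes tested. One member rose in the fit across all genes, Sfrp2, where 0.748% of all genes were called (limma, threshold 0.05 on the adjusted p). Replicate numbers 1, 4 and 5 occur in both fractions and were taken to pair the samples. With the number as a block, which leaves out Nestin-positive replicate 3, Sfrp2, Tcf7l2, Tcf7l1 and Fzd1 rose and Sp5 and Apc fell, where 10.1% of all genes were called, 3.60% higher and 6.52% lower. The pairing was read from the data. The counts of 4 of 25 and 2 of 25 have no test of their own.

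**Figure D1:**
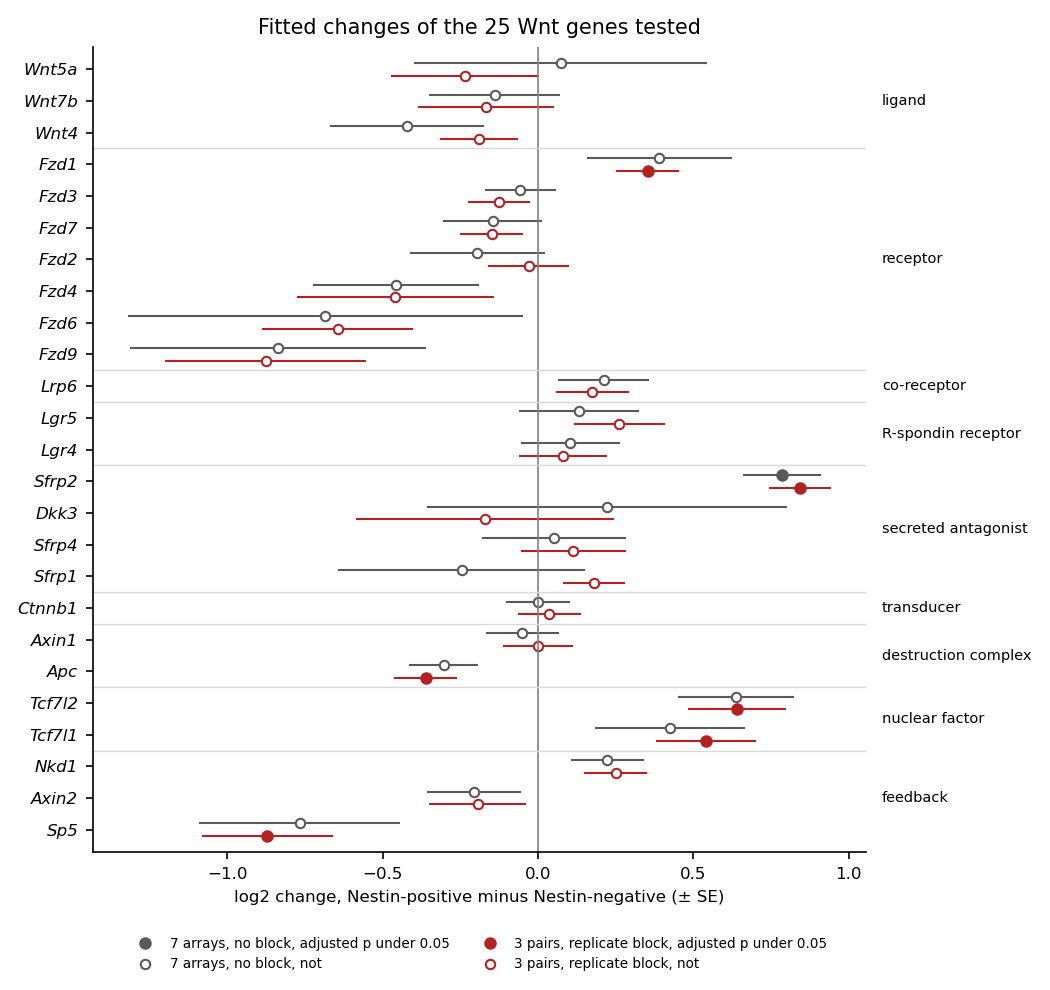
Log2 change, Nestin-positive minus Nestin-negative, with its standard error (horizontal axis) for the 25 Wnt genes past the filter, ordered by role. Grey symbols are the fit to 7 arrays and red symbols the fit to 3 pairs, filled where the adjusted p is under 0.05: Sfrp2 in the first, and Sfrp2, Fzd1, Tcf7l2, Tcf7l1, Apc and Sp5 in the second.

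Fractions that do not overlap were about as frequent among the members as elsewhere. Sfrp2 and Tcf7l2 were higher and Apc and Fzd4 lower on every Nestin-positive than on every Nestin-negative array, 4 of 25 genes, where 15.0% of all genes had such groups, 5.87% higher and 9.11% lower. At an unadjusted p under 0.05 without the block, Sfrp2 and Tcf7l2 were higher and Apc and Sp5 lower, again 4 of 25, where 14.4% of all genes reached it, 5.33% higher and 9.09% lower. Within the 3 same-numbered pairs, the Nestin-positive sample was the higher one each time for 8 members and the lower one each time for 9, 32.0% and 36.0% of the 25, against 19.0% and 23.0% of all genes.

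The ligands did not pass the test in either direction. Wnt4, a ligand often linked to signalling without beta-catenin, had 515, 267, 433 and 591 in Nestin-positive replicates 1, 3, 4 and 5, against 569, 532 and 646 in Nestin-negative replicates 1, 4 and 5. Its lowest value was in Nestin-positive replicate 3, and in all 3 pairs the Nestin-negative sample was higher. Its log2 change was -0.42, with an SE of 0.25 (adjusted p = 0.491). Wnt5a, a ligand of planar polarity and related signalling, had 94.1, 303, 165 and 139 in Nestin-positive cells and 72.1, 216 and 226 in Nestin-negative cells. Both values of replicate 1 were the lowest of their fraction, and replicate 3, whose astrocyte sum was also the highest, had the highest Wnt5a signal of all. Among Nestin-negative samples Wnt5a was highest in replicate 5 but the astrocyte sum in replicate 4, and a relation between them was not tested. Wnt7b lay between 137 and 152 in Nestin-positive and between 139 and 201 in Nestin-negative cells.

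Among the Frizzled receptors the direction was mixed. Fzd1 had 2299, 3583, 4314 and 3366 in Nestin-positive cells, against 1886, 3275 and 2595 in Nestin-negative cells. The fractions overlapped, and each Nestin-positive sample was above its same-numbered partner. The log2 change was 0.39 ± 0.23 SE (adjusted p = 0.497), and 0.35 ± 0.10 with the block, or 1.28-fold (adjusted p = 0.0266). The call was lost without pair 5 (adjusted p = 0.171) and with the mean of both Fzd1 probe sets (0.166).

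The other Frizzled genes past the filter had negative log2 changes, none of which passed either fit. Fzd9 was dim in most samples, with 27.5, 58.5, 87.5 and 60.6 in Nestin-positive cells and 53.8, 145 and 116 in Nestin-negative cells. In all 3 pairs the Nestin-positive sample was lower (log2 change with the block -0.88 ± 0.32 SE, adjusted p = 0.0961). Fzd6, a receptor of planar polarity, had 35.0, 81.7, 173 and 124 in Nestin-positive cells and 53.4, 258 and 209 in Nestin-negative cells. Replicate 1 was lowest in both fractions (with the block -0.64 ± 0.24 SE, adjusted p = 0.106). Fzd4, a receptor of Norrin in vessels, was near the array median, with 58.5 to 67.7 in Nestin-positive and 82.2 to 94.2 in Nestin-negative cells. Those groups did not overlap, but the log2 change of -0.46 ± 0.27 SE did not pass (adjusted p = 0.493). Fzd2, Fzd3 and Fzd7, all bright, had log2 changes of -0.19, -0.06 and -0.15 (adjusted p between 0.735 and 0.866).

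The co-receptor gene Lrp6 had 864, 843, 689 and 749 in Nestin-positive cells and 799, 628 and 616.5 in Nestin-negative cells. The values overlapped, and the Nestin-positive sample of each pair was higher (log2 change 0.21 ± 0.15 SE, adjusted p = 0.572). Lgr4 and Lgr5, receptors of the R-spondins that raise the sensitivity to Wnt, differed by 0.10 ± 0.16 and 0.13 ± 0.19 (SE) on the log2 scale (adjusted p = 0.817 and 0.804). Lgr5 was also higher in all 3 pairs, at 282 to 462 in Nestin-positive and 321 to 371 in Nestin-negative cells.

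Sfrp2, a secreted Frizzled-related protein that can bind Wnt ligands, had the smallest adjusted p of the 25 tested members. It had 5063, 4590.1, 5648 and 5449.7 in Nestin-positive replicates 1, 3, 4 and 5, against 2572, 3186 and 3291 in Nestin-negative replicates 1, 4 and 5. Every Nestin-positive sample lay above every Nestin-negative sample, and the means were 5188 ± 467 (SD, n = 4) and 3016 ± 389 (SD, n = 3). On the log2 scale it rose by 0.79 ± 0.13 (SE), a fold of 1.72, with an adjusted p of 0.0328 in limma. It was 0.84 ± 0.10 with the block, or 1.79-fold (adjusted p = 9.6e-06). Exact permutation of the fraction labels, in 35 possible ways and two-sided, gave p = 0.0286 for Sfrp2, the lowest value that 7 arrays can give. Tcf7l2 and Fzd4, whose fractions did not overlap either, had the same permutation p, so that it adds little to the lack of overlap. Apc, also without overlap, had a permutation p of 0.0571. The call without the block was lost when single arrays were left out: the adjusted p was then 0.0730 and 0.0794 for replicates 1 and 5 of the Nestin-positive fraction, and 0.0803, 0.149 and 0.0769 for replicates 1, 4 and 5 of the Nestin-negative fraction, at log2 changes between 0.68 and 0.85. Sfrp2 has a single probe set, so no second one could be set beside it.

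**Figure D2:**
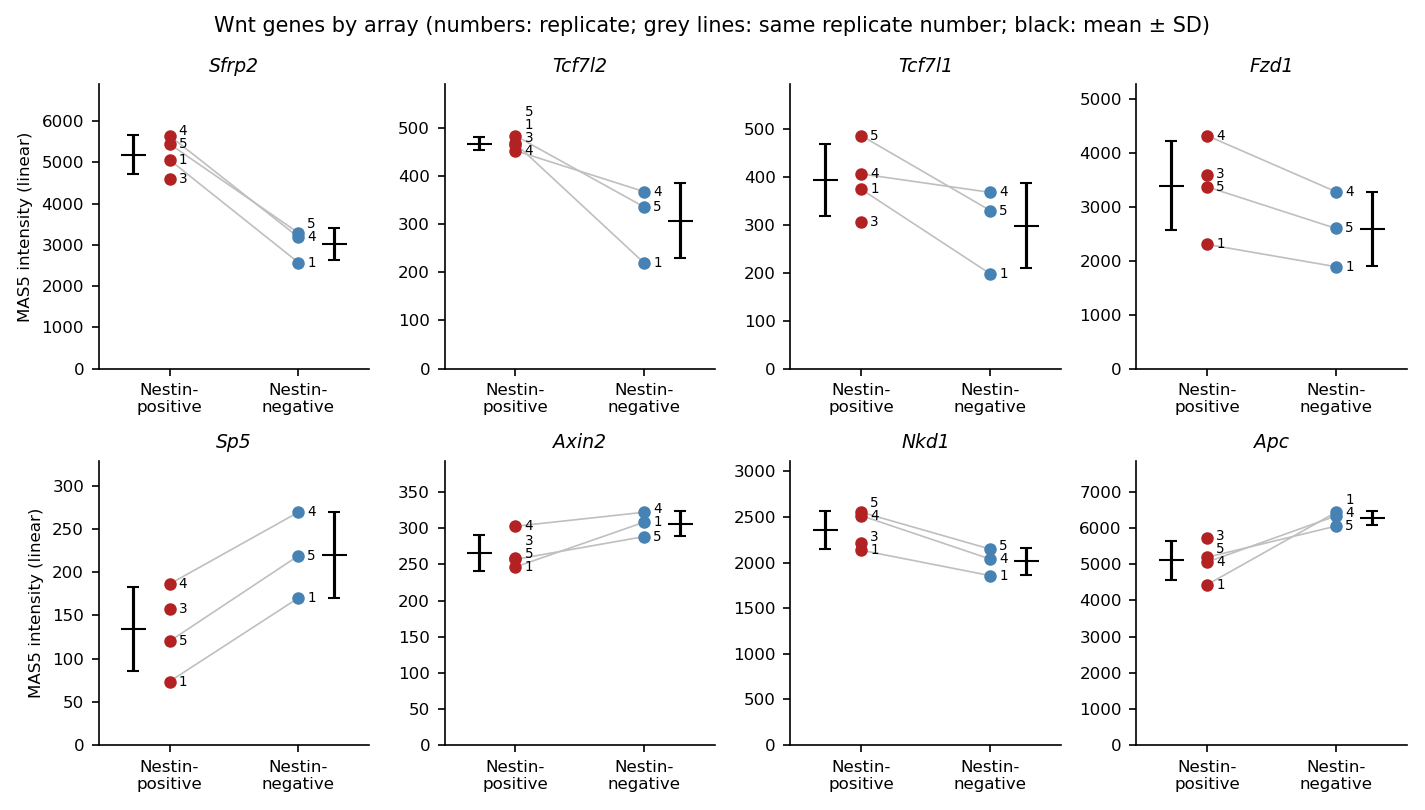
MAS5 intensity on a linear scale (vertical axis) of 8 Wnt genes in Nestin-positive (left) and Nestin-negative (right) samples, with replicate numbers, grey lines between same-numbered samples and the mean ± SD in black. Sfrp2 and Tcf7l2 are higher and Apc lower on every Nestin-positive array, while Fzd1, Tcf7l1, Sp5, Axin2 and Nkd1 overlap between the fractions.

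Sfrp1, the antagonist with the most probe sets, had log2 changes in both directions among them without the block. Its brightest probe set had 12443.5, 3507, 12626 and 9485 in Nestin-positive cells, against 12435, 10591.6 and 7774 in Nestin-negative cells. Nestin-positive replicate 3 was far below the other 6 arrays on this probe set, and the log2 change was -0.25 ± 0.40 SE (adjusted p = 0.83), or 0.18 ± 0.10 with the block (adjusted p = 0.319). A dimmer probe set was low in the same sample, at 1009, whereas the other 3 samples of its fraction had 2423 to 5110.1. On that probe set Nestin-negative replicate 5 was low too, at 1301, against 4174 and 3079 in Nestin-negative replicates 1 and 4. On the remaining 3 probe sets Nestin-positive replicate 3 was within the range of the other 6 arrays. One Sfrp1 probe set was higher without overlap, at 2429 to 3058 in Nestin-positive and 2097 to 2297 in Nestin-negative cells. With the block, which leaves out Nestin-positive replicate 3, all 5 probe sets had positive log2 changes, from 0.18 to 0.39. None of them passed (adjusted p between 0.150 and 0.484 over probe sets). Sfrp4 and Dkk3 differed by 0.05 ± 0.23 and 0.22 ± 0.58 (SE, adjusted p = 0.949 and 0.896), and Dkk3 was highest, at 148, in Nestin-positive replicate 3.

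Ctnnb1, the beta-catenin gene, was bright and close between the fractions. Its brightest probe set had 17133, 17519.9, 21117.5 and 20037 in Nestin-positive replicates 1, 3, 4 and 5, and 18700.5, 19184.5 and 18698 in Nestin-negative replicates 1, 4 and 5. The Nestin-positive values lay on both sides of the Nestin-negative ones, with a log2 change of 0.00 and a 95% interval of -0.23 to 0.23 (adjusted p = 0.997). A second probe set was higher without overlap, at 4306 to 4848 in Nestin-positive and 3074 to 4227 in Nestin-negative cells (log2 change 0.30 ± 0.13 SE, adjusted p = 0.438 over probe sets).

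In the destruction complex, Axin1 lay at 798 to 952 in Nestin-positive and 879 to 960 in Nestin-negative cells (log2 change -0.05 ± 0.12 SE, adjusted p = 0.885). Apc, the scaffold that brings beta-catenin to this complex, had 4438, 5728, 5062 and 5194 on its brightest probe set in Nestin-positive cells, against 6439, 6338 and 6056 in Nestin-negative cells. All 4 Nestin-positive values lay below the 3 others, with a log2 change of -0.30 ± 0.11 SE (adjusted p = 0.244) and, with the block, -0.36 ± 0.10 (adjusted p = 0.0251). The fall was seen on 1 of 4 probe sets. The other 3 Apc probe sets had log2 changes of 0.13, 0.25 and 0.14, the mean of all probe sets gave -0.02 with the block (adjusted p = 0.952), and on the brightest one the blocked adjusted p was 0.208 without pair 1 and 0.0700 without pair 5.

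Both nuclear factors past the filter rose, with the block only. Tcf7l2, a Tcf factor that activates or represses targets with or without beta-catenin, had 468, 465, 453 and 484 in Nestin-positive cells, against 219, 368 and 336 in Nestin-negative cells. The Nestin-positive values were tight and all above the others, of which replicate 1 was lowest. The log2 change was 0.64 ± 0.19 SE (adjusted p = 0.149) and 0.64 ± 0.16 with the block, or 1.56-fold (adjusted p = 0.0110; 0.183 without pair 1).

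A second Tcf7l2 probe set gave 245, 252, 360 and 369 in Nestin-positive and 102, 222 and 229 in Nestin-negative cells, again without overlap (log2 change 0.80 ± 0.32 SE; 0.89 ± 0.18 with the block, adjusted p = 0.0128 over probe sets). Both Tcf7l2 probe sets passed with the block in the fit of all 20162 single-gene probe sets, where 4.94% were called. The other 2 Tcf7l2 probe sets did not pass the filter. Tcf7l1, known mostly as a repressor, had 374, 305, 407 and 486 in Nestin-positive cells, against 198, 368 and 330 in Nestin-negative cells. The fractions overlapped, with Nestin-negative replicate 1 lowest (log2 change 0.43 ± 0.24 SE, adjusted p = 0.474). With the block it rose by 0.54 ± 0.16 (adjusted p = 0.0340), a call lost without pair 1 (0.327), without pair 5 (0.10), with the mean of both probe sets (0.112) and with dim values raised to the array median (0.0581). Lef1 was dim, with 28.2, 20.8, 72.9 and 54.7 on its brighter probe set in Nestin-positive and 71.9, 99.8 and 60.3 in Nestin-negative cells, at or above the array median on 2 arrays.

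The feedback genes did not share a direction. Sp5, a zinc finger factor induced by Wnt signals, whose printed window held both TCF/LEF matches, had 73.4, 157, 186 and 120 in Nestin-positive cells, against 170, 269 and 219 in Nestin-negative cells. Replicate 1 was lowest and replicate 4 highest in both fractions, so that the fractions overlapped while each pair was lower in Nestin-positive cells. The log2 change was -0.77 ± 0.32 SE (adjusted p = 0.320), and -0.87 ± 0.21 with the block, or 0.547-fold (adjusted p = 0.00982). Nestin-positive replicate 1 was below the array median. With dim values raised to it, an alternative chosen after seeing the data, the blocked fall was -0.75 ± 0.18 (adjusted p = 0.0139). Without each pair in turn the blocked adjusted p was 0.0438, 0.00778 and 0.0335. Those fits have few residual degrees of freedom and lean on the spread of all genes, so they do not show that the call is stable.

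Axin2, the feedback gene most used as a readout of beta-catenin activity, had 247, 259, 303 and 257 in Nestin-positive cells, against 309, 322 and 289 in Nestin-negative cells. Each pair was lower in Nestin-positive cells, but the change of -0.21 ± 0.15 SE, with a 95% interval of -0.54 to 0.13, did not pass (adjusted p = 0.597; 0.529 with the block). Nkd1, which binds Dishevelled, had 2136, 2219, 2516 and 2553 on its brightest probe set in Nestin-positive cells, against 1858, 2039 and 2149 in Nestin-negative cells. Each pair was higher in Nestin-positive cells, and the change of 0.22 ± 0.12 SE did not pass either (adjusted p = 0.433; 0.25 ± 0.10 and 0.136 with the block). The other Nkd1 probe sets past the filter had log2 changes of 0.04, 0.25 and 0.04. On them not every pair was higher: one had 62.6 against 78.4 in pair 1, and another 240 against 361 in pair 5. Notum, a lipase that inactivates Wnt ligands, was dim on all arrays but Nestin-positive replicate 4, with 11.5, 53.0, 71.8 and 35.1 in Nestin-positive and 32.4, 46.5 and 59.2 in Nestin-negative cells. All 4 Nkd2 probe sets failed the filter too, between 12.2 and 67.1 in Nestin-positive and between 25.3 and 98.6 in Nestin-negative cells. Only the 98.6, in Nestin-negative replicate 5, was above the array median.

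**Figure D3:**
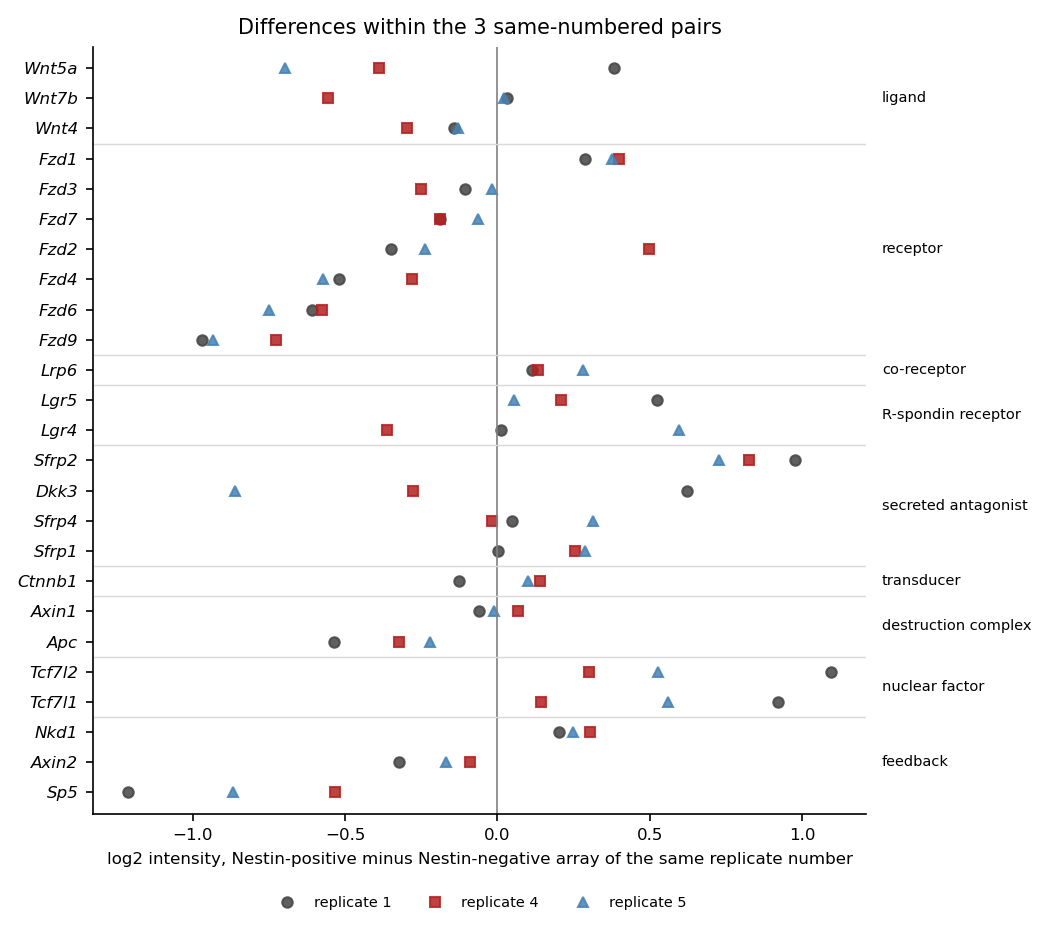
Log2 intensity of the Nestin-positive minus the Nestin-negative array of the same replicate number (horizontal axis) for the 25 Wnt genes past the filter, with a symbol for each of the 3 pairs. Sfrp2, Fzd1, Nkd1 and both Tcf7l genes lie right of 0 in all pairs, Sp5, Axin2, Apc, Fzd4, Fzd6 and Fzd9 left of 0, and Wnt5a and Dkk3 on both sides.

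Taken by probe set, fewer calls were made. Of the 49 member probe sets past the filter, limma called 0 without the block (7 at an unadjusted p under 0.05), as it called 0 of all 20162, or 0.00%. With the block it called 4, of Sfrp2 and Tcf7l2 (3 probe sets, higher, where 1.53% of all were) and of Sp5 (1, lower, where 3.41% were). The Sfrp2 probe set had an adjusted p of 0.0832 without the block, over more features tested.

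The replicates also differed among themselves. Of the 25 genes, 12 were lowest in Nestin-positive replicate 1 and 14 in Nestin-negative replicate 1, against 35.0% and 49.2% of all genes, and Fzd1, Fzd6, Fzd7, Fzd9, Nkd1, Sp5, Wnt5a and Dkk3 were lowest there in both fractions. Of the 25, 11 were highest in Nestin-positive replicate 4 and 14 in Nestin-negative replicate 4, against 38.3% and 32.3% of all genes.

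Other genes of the pathway were taken from 5 lists of 59 genes, of which 47 passed the filter, with a median log2 change of -0.06. Limma called 1 of them without the block, Prickle2, which was lower, where 0.577% of all genes were called lower. With the block 5 rose and 3 fell, where 3.60% of all genes were called higher and 6.52% lower, so that the 3 of 47 that fell are close to the share of all genes. Prickle2, a cytoplasmic component of planar cell polarity, had 605, 636, 630.3 and 625 in Nestin-positive cells, against 1249.8, 1253 and 992 in Nestin-negative cells. No value overlapped, and the log2 change was -0.89 ± 0.13 SE, or 0.539-fold (adjusted p = 0.0299; 3.6e-05 with the block). Leaving out single arrays gave an adjusted p of 0.0642 and 0.0720 for replicates 1 and 5 of the Nestin-positive fraction, and of 0.0713, 0.148 and 0.0568 for replicates 1, 4 and 5 of the Nestin-negative fraction. The postmitotic neuron markers were lower in Nestin-positive samples too, and their part in this fall was not tested. In the same list of 9 measured genes, Celsr1, an atypical cadherin of planar polarity, had 329, 600.1, 506 and 453 in Nestin-positive cells, against 152, 213 and 308 in Nestin-negative cells. Its lowest Nestin-positive value was just above the highest Nestin-negative one (log2 change 1.10 ± 0.27 SE, adjusted p = 0.0979), and it rose with the block by 0.97 ± 0.17 (adjusted p = 0.00048). Vangl2, Scrib and the other 5 did not pass.

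The genes that make and export ligands went in opposite directions. Porcn, the acyltransferase that attaches the lipid to Wnt proteins, had 404, 301, 655 and 487 in Nestin-positive cells, against 908, 867 and 792 in Nestin-negative cells. Wls, the carrier of the lipid-bearing ligand to the cell surface, had 1279.5, 1882, 1342 and 1479.6 in Nestin-positive cells, against 735, 1128 and 1065 in Nestin-negative cells. Neither gene's fractions overlapped. On the log2 scale Porcn fell with the block by 0.76 ± 0.14 (SE; adjusted p = 0.000952), and Wls rose by 0.51 ± 0.12 (adjusted p = 0.00773; 0.139 without pair 1), while without the block the adjusted p was 0.0993 and 0.157. Porcn also passed without the block when Nestin-positive replicate 4 was left out (adjusted p = 0.0413). Ndp, which encodes Norrin, a ligand of Fzd4 that is no Wnt protein, had 299, 373, 355 and 288 in Nestin-positive cells, against 164, 224 and 217 in Nestin-negative cells. It rose with the block by 0.65 ± 0.17 (adjusted p = 0.0164; 0.107 without the block, and 0.103 with the block without pair 1).

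**Figure D4:**
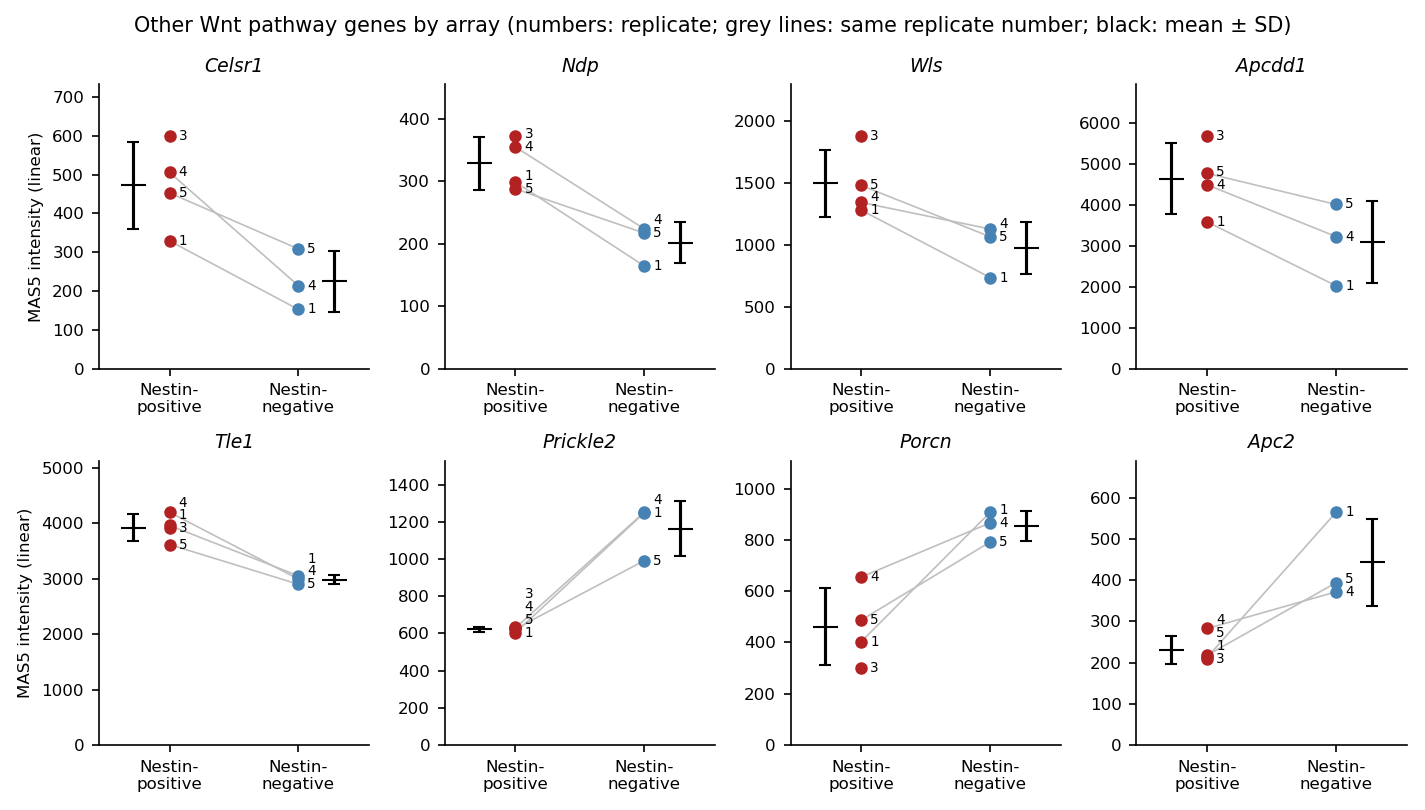
MAS5 intensity on a linear scale (vertical axis) of the 8 pathway genes called with the block, in Nestin-positive (left) and Nestin-negative (right) samples, with replicate numbers, grey lines between same-numbered samples and the mean ± SD in black. Celsr1, Ndp, Wls, Apcdd1 and Tle1 are higher and Prickle2, Porcn and Apc2 lower in Nestin-positive cells within all 3 pairs.

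Apcdd1, a membrane inhibitor that binds Wnt and Lrp proteins, had 3578, 5683, 4482 and 4763 in Nestin-positive cells, against 2018, 3220.2 and 4005 in Nestin-negative cells. The fractions overlapped, with replicate 1 lowest in each (log2 change 0.62 ± 0.23 SE, adjusted p = 0.247), and with the block it rose by 0.52 ± 0.11 (adjusted p = 0.00391; 0.0590 without pair 1). The other 8 measured genes of its list, Ror1, Ror2, Ryk and Znrf3 among them, did not pass in either fit. Apc2, a relative of Apc found in neurons, had 213, 209, 283 and 218 in Nestin-positive cells, against 565, 372 and 394 in Nestin-negative cells. All its Nestin-positive values were lower, and with the block it fell by 0.88 ± 0.17 (adjusted p = 0.00184; 0.0692 without the block). With the mean of its 2 probe sets past the filter, the blocked change was -0.11 (adjusted p = 0.870).

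The remaining 14 measured genes of the Apc2 list, including the kinase genes Gsk3b and Csnk1a1 and the Dishevelled genes Dvl1 and Dvl2, did not pass. Of 11 measured nuclear cofactors, Tle1, a Groucho corepressor that binds Tcf factors, rose with the block by 0.39 ± 0.10 (adjusted p = 0.0129; 0.106 without the block). It had 3963, 3915, 4201 and 3618 in Nestin-positive cells, against 3054, 2994 and 2901 in Nestin-negative cells. Those groups did not overlap, but the blocked call was lost without pair 5 (adjusted p = 0.0530) and with the mean of both probe sets (0.0642).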

How the data were processed

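Biotin-labelled RNA of sorted cells was measured on Affymetrix mouse arrays of 1 colour, per the labels. The deposited values are MAS5 intensity per probe set, per the submitters' processing notes; no version was given. The scaling by the authors was read from the values, whose mean without the lowest and highest 2% was 500.003 on each array. Precision is limited by the 7 arrays.

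Of 45101 probe sets, 64 controls were left out. The platform annotation gave 1 gene for 34945 probe sets, 34741 of them matched by Entrez ID to RefSeq symbols (GRCm38.p6), several for 932 and none for 9160. Log2 of the intensity was taken without a pseudocount. Probe sets at or above the array median on at least 3 arrays were kept (23585), and the brightest of each gene stood for it. All 11089 genes were fitted with limma 3.58.1 under R 4.3.3, by lmFit and then eBayes with trend, in two-sided tests with Benjamini-Hochberg adjustment over all genes. The fit without the block was tested on simulated data with independent noise and no replicate effect. The blocked fit was not tested in this way.

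Deviations from the group means correlated with r = 0.39 to 0.71 across genes between same-numbered samples and with -0.60 to 0.19 between others, and the numbers were therefore taken as pairs. The labels do not state a pairing, and deviations cancel within a group. The blocked fit has 2 residual degrees of freedom per gene and 20.2 after moderation. Without a pair fewer residual ones remain, and the SE then rests largely on the spread shared across genes. The blocked adjusted p could then fall although data were removed, as for Sfrp2 (9.6e-06 with all pairs, 1.6e-09 without pair 4). A call kept without a pair therefore does not show that it is stable. Results are given without the block, and with it where it changes the call.

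Every member could be named. Values on all arrays are given for those called in either fit or at an unadjusted p under 0.05, for Axin2, Lef1, Nkd1, Sp5, Notum and Ctnnb1, and, after seeing their values, for other members. Pathway genes called in either fit are named, up to 4 a list, and others after seeing their values. Members and lists were chosen with earlier results of these data known. Alternatives were the block, leaving out arrays or pairs, quantile normalization, no filter, raising dim values, a pseudocount of 16 and the mean of a gene's probe sets.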

Additional observations from a re-analysis of the deposited data

Results flagged for a closer look

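Of 33 genes examined for a Nestin-positive sample far from the other 3, the measured members and the pathway genes named, 1 stood out. Apc2 had 283 in Nestin-positive replicate 4, whereas the other Nestin-positive samples lay between 209 and 218. The gap to the nearest was 0.858 of the range. Chance alone flags about 1 in 20 such groups.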

How the results depend on the processing

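Without each array in turn, limma called 0 to 1 Wnt members (3 to 5 at an unadjusted p under 0.05), 0 to 2 genes of the pathway lists and 0 member probe sets, from 0 to 97 of all genes. With the replicate block it called 6 members, 8 pathway genes and 4 member probe sets, where 399 of all 11089 genes were higher and 723 lower. Without pairs 1, 4 and 5 in turn it called 3, 6 and 3 members, 6, 10 and 7 pathway genes, and 2, 10 and 3 probe sets. Of all genes, 182, 567 and 311 were then called higher and 546, 886 and 598 lower, so that the calls over all genes moved too. A further 2 alternatives were chosen after seeing the data. The block with dim values raised to the array median gave 5 members, 8 pathway genes and 3 probe sets, and the block with the mean of a gene's probe sets gave 3 members and 6 pathway genes. Of all genes, 329 were called higher and 649 lower in the first, and 323 and 645 in the second. The causes of these changes were not tested, beyond fewer samples where arrays were left out. Quantile normalization, no filter on dim probe sets, raised dim values, the pseudocount of 16 and the mean of a gene's probe sets each left 1 member and 1 pathway gene called. Of all genes, these alternatives called 9 to 24 higher and 13 to 98 lower (18193 genes with no filter, 11089 otherwise). The median log2 change of the members lay between -0.11 and 0.05 over all 18 alternatives. Among the members and pathway genes named in the report, the block changed no other call. Dim signals limit what can be said of 29 of the 54 members.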
